A study of Mus musculus with 12 samples.

Results

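Oxygen-glucose deprivation followed by reoxygenation (OGD/R) changed 2 lines of mouse microglial cells differently, and the difference between those changes, gene by gene, is described here. The cells were BV2 cells, an immortalized mouse microglial line, stably expressing a control shRNA (shCtrl) or one that targets Anxa2 (shAnxa2), which codes for a calcium-dependent membrane-binding protein. Cultures of each line stayed untreated (CTRL) or underwent OGD/R (OGDR), and RNA was sequenced from 3 libraries in each of the 4 groups shCtrl-CTRL, shCtrl-OGDR, shAnxa2-CTRL and shAnxa2-OGDR. For every gene the interaction was the OGD/R change in shAnxa2 minus the OGD/R change in shCtrl, on a log2 scale, so that a negative value means that the change was lower in the knockdown line. All 12 of the 12 libraries entered 1 model, and 11626 of the 21834 genes in the deposited table had at least 0.5 CPM (counts scaled to a common library total) in at least 3 libraries and were tested. Both lines were made by lentiviral transduction and puromycin selection, so the control cells carried a vector as well, and each line was represented by a single shRNA construct. By the sample labels, deprivation lasted 4 h and reoxygenation 12 h, while the study's methods for BV2 cells give a longer reoxygenation.

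Libraries were assigned to groups by their names. A separate label for the cells contradicts those names, since it follows the treatment and not the line, and calls the libraries named shCtrl-OGDR knockdown cells and those named shAnxa2-CTRL wild type. Anxa2 sided with the names. It was at 164, 174 and 176.6 CPM in shCtrl-CTRL, 251, 294 and 291 in shCtrl-OGDR, 35, 44.4 and 41.8 in shAnxa2-CTRL, and 18.2, 20.1 and 20.6 in shAnxa2-OGDR, so every shAnxa2 library was below every shCtrl library. The treatment has no such check, because the table holds no readout of OGD/R apart from the genes described here, and which shAnxa2 libraries went through OGD/R rests on their names. Total counts were 19521877 to 27288843 per library. Of 14 markers of neurons, glia other than microglia, endothelium and fibroblasts, 4 passed the filter, and the neuronal markers Snap25 and Syt1, the astrocyte marker Aqp4 and the oligodendrocyte marker Mog had 0 counts in every library. All 10 microglia and macrophage identity genes were tested. For the interaction 1 was higher (10%, against 34.9% of all genes tested) and 3 were lower (30%, against 35.1%). No batch is named in the sources used here, and one that coincided with the groups could not be told apart from them. Reported p-values measure the spread between these libraries, which may be technical. The study describes its BV2 libraries as biological replicates, without saying how the cultures were separated.

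OGD/R is a culture model of the loss and return of blood flow in stroke. Low oxygen stabilizes HIF transcription factors, which switch on genes for glycolysis, angiogenesis and mitophagy. Lack of amino acids or glucose, or unfolded protein in the endoplasmic reticulum (ER), activates kinases that raise ATF4, the factor behind amino acid import and synthesis in the integrated stress response. NF-kB drives inflammatory genes in microglia, and cells that stop growing lower the genes of DNA replication and of ribosome assembly.

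The interaction passed an adjusted p of 0.05 (edgeR quasi-likelihood test, Benjamini-Hochberg) for 8136 genes, 70.0% of those tested. Of these, 4059 were higher in shAnxa2 (34.9% of genes tested) and 4077 were lower (35.1%). A log2 difference of at least 1 was reached as well by 2497 genes (21.5%), 1026 higher (8.83%) and 1471 lower (12.7%). The tail was longer on the lower side, with 131 genes at a log2 difference of -3 or beyond and 35 at 3 or beyond. The median over all genes was -0.01. Because most genes passed the test, a list is read below by its direction and its size against these background shares. Over all genes tested, OGD/R raised 32.4% and lowered 31.0% in shCtrl, and raised 28.2% and lowered 26.8% in shAnxa2. The CTRL and OGDR libraries did not overlap for 68.0% of genes in shCtrl and for 58.9% in shAnxa2. In RNA from whole cultures, a change in the share of cells in a given state and a change of RNA per cell cannot be told apart.

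Opposite changes made up most of the interaction. For 5165 of the 8136 genes (63.5%) OGD/R moved the lines in opposite directions, each past an adjusted p of 0.05. For 1736 (21.3%) only the shCtrl change passed and for 870 (10.7%) only the shAnxa2 change did, while 360 (4.42%) had neither change past the threshold. Both lines moved in the same direction, each past the threshold, for 5 of these called genes. Genes without a called interaction were not sorted by form, and a call on the difference of the changes favours unlike changes. The form of the interaction rests on the treatment names of the shAnxa2 libraries. With CTRL and OGDR exchanged in that line each shAnxa2 change turns its sign. The 5165 genes above would then have changed in the same direction in both lines. The sizes, signs and calls of the interactions rest on the same names, as do the order of the lists and the choice of the largest genes. None of these was computed with the names exchanged. Among the 2497 genes with a log2 difference of at least 1, 2051 (82.1%) had the opposite form and 0 the same direction. The shCtrl change was the larger in size for 1733 of the 2610 genes that fell in shCtrl and rose in shAnxa2, and for 1821 of the 2555 with the reverse pattern.

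**Figure D1:**
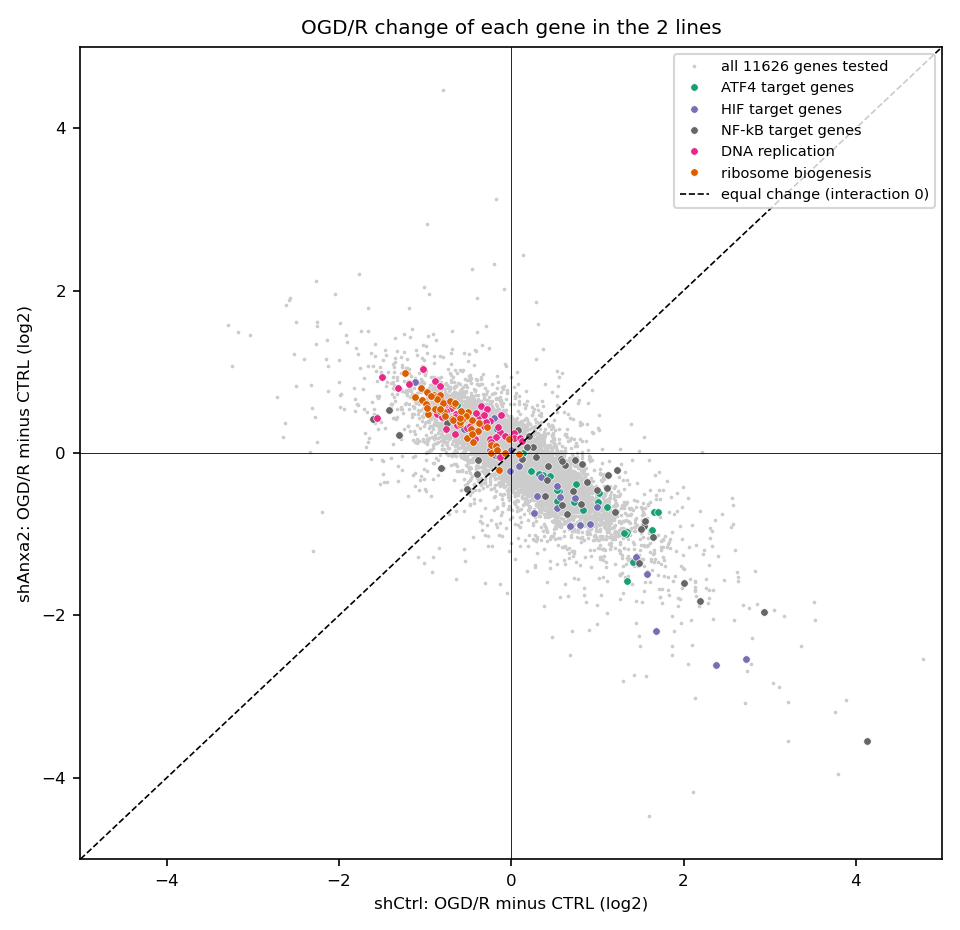
OGD/R change (OGDR minus CTRL, log2) of each of 11626 genes in shCtrl (x axis) and in shAnxa2 (y axis), with 5 process lists in colour and a dashed line where the changes are equal. Most DNA replication and ribosome biogenesis genes lie at the upper left (down in shCtrl, up in shAnxa2), most ATF4, HIF and NF-kB target genes lie at the lower right, and 5 genes fall outside the axes.

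Lists of genes for 33 processes were ordered by their median interaction. The lowest medians belonged to ATF4 target genes (-1.33), HIF target genes (-1.06), NF-kB target genes (-0.78) and glycolysis (-0.66). The highest belonged to ribosome biogenesis (1.11), the mitochondrially encoded subunits (1.03), DNA replication (0.90) and ER chaperones with the unfolded protein response (0.71). Cytosolic aminoacyl-tRNA synthetases (-0.06) and NRF2 target genes (0.08) lay nearest to the median of all genes. The list members named below are drawn from the called members of largest size with a mean of at least 1 CPM, so less abundant members can exceed them.

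**Figure D2:**
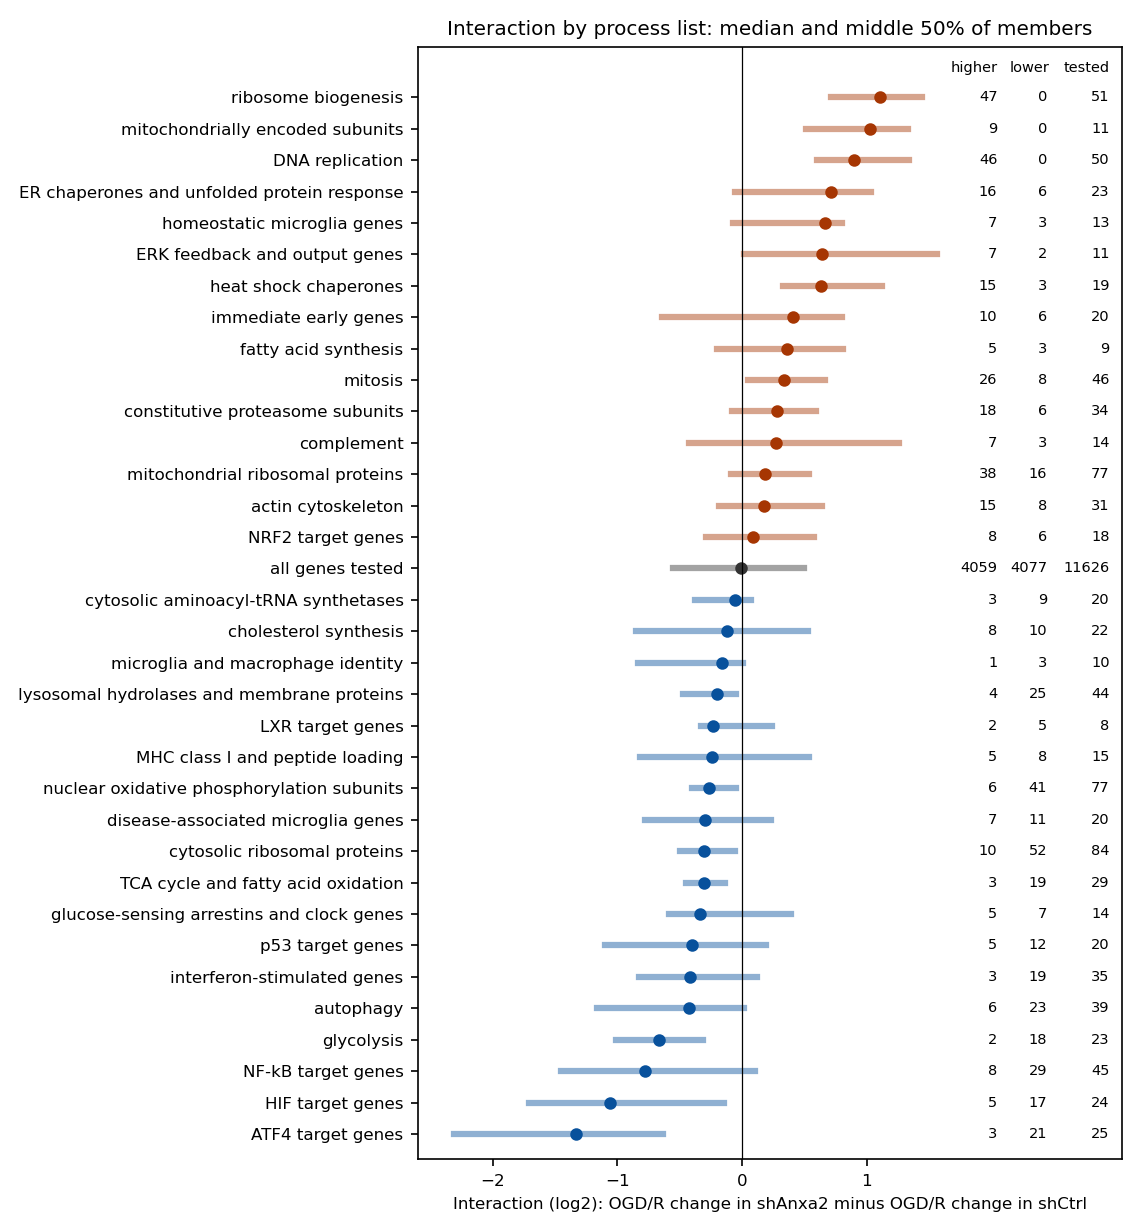
Median interaction (point) and middle 50% of members (bar) for 33 process lists and for all genes tested, on a log2 scale, with the numbers of members called higher, called lower and tested at the right. ATF4 target genes stand lowest at -1.33 and ribosome biogenesis highest at 1.11, on either side of all genes at -0.01.

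ATF4 target genes, which serve amino acid import, synthesis and redox balance, were the list with the lowest median. Of 25 members tested, 21 were lower for the interaction, 16 of them with a log2 difference of at least 1, and 3 were higher. OGD/R raised 22 members in shCtrl and lowered 21 in shAnxa2, and all 24 called members had the opposite form. The median change was 0.75 in shCtrl and -0.59 in shAnxa2. Slc7a11, the cystine importer, was at 16.8, 15.5 and 13.3 CPM in shCtrl-CTRL, 44.4, 36.9 and 39.7 in shCtrl-OGDR, 59, 52.3 and 47.1 in shAnxa2-CTRL, and 24.3, 20.9 and 17.5 in shAnxa2-OGDR. Its shCtrl-OGDR and shAnxa2-CTRL libraries were thus the high ones, and CTRL and OGDR libraries did not overlap in either line. The interaction was -2.75 ± 0.15 (SE; adjusted p = 4.09e-14). Pck2, the mitochondrial PEP carboxykinase, was at 76.5, 74.6 and 74.3 CPM in shCtrl-CTRL, 264, 226 and 208 in shCtrl-OGDR, 147, 145 and 149 in shAnxa2-CTRL, and 77.5, 70.1 and 82.2 in shAnxa2-OGDR, with an interaction of -2.57 ± 0.09 (adjusted p = 4.48e-17). The glutathione-degrading enzyme Chac1, a low gene at 0.339 to 2.93 CPM, gave -2.92 ± 0.44. The members called higher were Slc7a5 (1.22 ± 0.09), a transporter of large neutral amino acids, Slc7a1 (0.46 ± 0.08), a transporter of cationic ones, and Slc3a2 (0.38 ± 0.07, named after its value was seen), the heavy chain that both Slc7a5 and Slc7a11 pair with. The mRNAs of the light chains Slc7a11 and Slc7a5 thus had interactions of opposite sign.

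ATF4 binds the C/EBP-ATF response element (CARE), searched here as TGATGNAA on both strands of the 300 bases from 250 before to 50 after each RefSeq start (GRCm38.p6). It was held by 8 of the 23 tested ATF4 targets with a window (34.8%), against 2.84% of the 9345 tested genes with one and 3.97% of all 32851 windows. The targets are known as such partly through this element, so the share describes the list and is no result of these libraries. The windows of the named targets Slc7a11 (chr3:50443564-50443863, minus strand) and Pck2 (chr14:55540016-55540315, plus strand) are shown, since both genes carry the lower interaction, with matches in capitals.
Slc7a11: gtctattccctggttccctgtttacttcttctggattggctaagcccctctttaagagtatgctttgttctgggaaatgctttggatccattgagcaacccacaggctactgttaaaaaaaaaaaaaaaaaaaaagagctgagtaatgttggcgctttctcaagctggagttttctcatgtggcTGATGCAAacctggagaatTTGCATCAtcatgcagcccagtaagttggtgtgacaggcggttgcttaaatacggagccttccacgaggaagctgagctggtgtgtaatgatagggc
Pck2: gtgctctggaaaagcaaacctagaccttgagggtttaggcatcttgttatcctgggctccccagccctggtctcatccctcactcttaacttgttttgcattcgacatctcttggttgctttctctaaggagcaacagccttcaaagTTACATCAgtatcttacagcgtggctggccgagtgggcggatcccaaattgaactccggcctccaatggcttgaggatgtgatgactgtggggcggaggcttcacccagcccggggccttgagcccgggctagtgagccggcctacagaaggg
Slc7a11 holds 2 matches, 66 and 47 bases before the start, on opposite strands, and Pck2 holds 1, 103 bases before it.

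The ER stress genes went the other way. Of 23 ER chaperones and unfolded protein response genes, 16 were higher (69.6%, against 34.9% of all genes) and 6 lower, with a median change of -0.48 in shCtrl and 0.21 in shAnxa2. Creld2, an ER-resident disulfide isomerase, was at 102, 103 and 95.3 CPM in shCtrl-CTRL, 37.9, 43.2 and 42.5 in shCtrl-OGDR, 57.2, 53.1 and 56.6 in shAnxa2-CTRL, and 100.3, 93.8 and 93.8 in shAnxa2-OGDR. The high libraries were here those of shCtrl-CTRL and shAnxa2-OGDR, and the interaction was 2.07 ± 0.08 (adjusted p = 1.46e-16). The secreted ER stress factor Manf (1.61 ± 0.13) and the BiP co-chaperone Dnajb11 (1.52 ± 0.07) followed. Ern1, the IRE1 sensor (-0.81 ± 0.09), and Herpud1, of ER-associated degradation (-0.68 ± 0.08), were among the 6 lower members. ATF4 targets and ER chaperones, which ER stress can raise together, thus had medians of opposite sign.

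Cytosolic heat shock chaperones resembled those of the ER. Of 19 tested, 15 were higher and 3 lower, with a median of 0.64. Hspa8, the constitutive HSP70, was at 3562, 3640.5 and 3829 CPM in shCtrl-CTRL, 1856, 1934 and 1863 in shCtrl-OGDR, 2155, 2031 and 2112 in shAnxa2-CTRL, and 3769, 3647 and 3470.1 in shAnxa2-OGDR. Its OGD/R change was -0.96 in shCtrl and 0.79 in shAnxa2, for an interaction of 1.75 ± 0.06 (adjusted p = 7.65e-18). The nucleotide exchange factor Hsph1 gave 1.98 ± 0.09, and Hspa1b, an inducible HSP70 with a near-identical copy, gave 1.55 ± 0.40 at 1.25 to 4.56 CPM, with overlapping CTRL and OGDR libraries in both lines. Hspa4l (-1.09 ± 0.08) and Dnajb4 (-0.53 ± 0.15) were lower. Aminoacyl-tRNA synthetases, several of which are ATF4 targets, had 9 of 20 lower, 3 higher and 0 with a log2 difference of at least 1: Cars (-0.97 ± 0.07), Sars (-0.73 ± 0.07) and Gars (-0.72 ± 0.06) were the lowest and Farsa (0.68 ± 0.07) and Hars (0.29 ± 0.07) the highest.

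HIF target genes were lower for 17 of 24 members, 13 of them with a log2 difference of at least 1, and higher for 5. OGD/R raised 16 in shCtrl and lowered 16 in shAnxa2. Ndrg1, a hypoxia-induced stress gene, was at 9.27, 11.7 and 11.5 CPM in shCtrl-CTRL, 63.6, 78.7 and 74.3 in shCtrl-OGDR, 49, 49.7 and 47.7 in shAnxa2-CTRL, and 6.99, 8.54 and 9.65 in shAnxa2-OGDR. The interaction was -5.26 ± 0.14 (adjusted p = 1.41e-19), from 2.73 in shCtrl and -2.53 in shAnxa2. Bnip3, a mitophagy receptor, was at 59.3, 65.2 and 76.6 CPM in shCtrl-CTRL, 179, 244 and 224 in shCtrl-OGDR, 171, 192 and 182 in shAnxa2-CTRL, and 38.8, 42.6 and 37.6 in shAnxa2-OGDR, with an interaction of -3.87 ± 0.13. Ddit4, an inhibitor of mTORC1, was at 18.9, 17.3 and 18.6 CPM in shCtrl-CTRL, 55, 57.2 and 50.2 in shCtrl-OGDR, 47.7, 45.7 and 51.4 in shAnxa2-CTRL, and 16.5, 16.1 and 19 in shAnxa2-OGDR, with an interaction of -3.06 ± 0.11. For these 3 genes the untreated knockdown libraries lay nearer to shCtrl-OGDR than to shCtrl-CTRL, and the shAnxa2-OGDR libraries nearer to shCtrl-CTRL. The membrane carbonic anhydrase Car12 (1.99 ± 0.07) and the secreted glycoprotein Stc2 (0.85 ± 0.10) were higher. The glucose transporter Slc2a1 and the mitochondrial protein Higd1a, the members not called, named after their values were seen, had interactions of -0.20 ± 0.11 and 0.04 ± 0.15.

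The core of the hypoxia response element, ACGTG on either strand, was in the windows of 13 of 19 HIF targets (68.4%), against 29.7% of tested genes and 19.6% of all windows. The core was also in 43.2% of ribosome biogenesis genes, 36.6% of DNA replication genes and 34.8% of ATF4 targets with a window. As for ATF4, the list is defined by known targets. The window of Bnip3 (chr7:138909457-138909756, minus strand) holds 2 matches that overlap in a palindrome, beginning 108 bases before the start.
Bnip3: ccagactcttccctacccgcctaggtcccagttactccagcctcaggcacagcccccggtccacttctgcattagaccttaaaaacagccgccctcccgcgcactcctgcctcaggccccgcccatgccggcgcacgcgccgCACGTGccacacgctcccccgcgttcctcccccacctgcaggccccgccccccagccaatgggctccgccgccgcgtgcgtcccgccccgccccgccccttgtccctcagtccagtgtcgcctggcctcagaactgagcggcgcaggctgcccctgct
In this window the overlapping matches also spell the E-box CACGTG, the element searched below for the ribosome biogenesis genes.

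Glycolysis had 18 of 23 members lower (78.3%, against 35.1% of all genes) and 2 higher. The differences were smaller than in the HIF targets, with 6 lower at a log2 difference of at least 1 and a median of -0.66. The enolase Eno2 gave -2.24 ± 0.14, the aldolase Aldoc -1.72 ± 0.11 and the phosphofructokinase Pfkm -1.38 ± 0.08. Slc16a1, the monocarboxylate transporter MCT1, was higher at 1.95 ± 0.07, with 384, 396 and 402 CPM in shCtrl-CTRL, 170.1, 178 and 172 in shCtrl-OGDR, 222, 229.7 and 214 in shAnxa2-CTRL, and 370.2, 391 and 376 in shAnxa2-OGDR. Eno3, a muscle-type enolase, was also higher (0.50 ± 0.10). The uncalled members were Hk2 (0.19 ± 0.09), Slc16a3 (0.15 ± 0.09) and an Aldoa entry (-0.58 ± 0.31, 1 of 2 gene identifiers of that symbol), named after their values were seen. Stress lists of other kinds were divided. Of 20 p53 target genes 12 were lower (60%, against 35.1% of all genes) and 5 higher (25%, against 34.9%). The lower members included Fas (-2.64 ± 0.28), the stress cytokine Gdf15 (-2.64 ± 0.17) and the BH3-only gene Bbc3 (-1.74 ± 0.13). The nuclease Aen (2.26 ± 0.11) and the kinase Plk3 (1.43 ± 0.16) were among the higher ones. Of 18 NRF2 target genes 8 were higher (44.4%, against 34.9% of all genes) and 6 lower (33.3%, against 35.1%). This split was not far from that of all genes, and 11.1% reached a log2 difference of at least 1, against 21.5%. The higher members included the glutathione synthesis enzyme Gclc (1.20 ± 0.08), Txnrd1 (1.03 ± 0.07) and Osgin1 (0.97 ± 0.15). The heme oxygenase Hmox1 (-1.0 ± 0.08) and the ferritin Fth1 (-0.96 ± 0.06) were among the lower ones.

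Among inflammatory genes the NF-kB targets lay mostly on the lower side. The complement genes and the genes that the study measured, described below, went both ways. Of 45 NF-kB target genes 29 were lower (64.4%, against 35.1% of all genes), 18 of them with a log2 difference of at least 1, and 8 were higher. OGD/R raised 30 in shCtrl and lowered 22 in shAnxa2. For 12 of the 37 called members the shCtrl change alone passed the threshold. Nos2, the inducible nitric oxide synthase (chromosome 11, 78811613 to 78851080, plus strand, in the table's mm39 coordinates), was at 2.38, 3.63 and 3.31 CPM in shCtrl-CTRL, 48.8, 57.2 and 58.2 in shCtrl-OGDR, 93.8, 87.6 and 81.5 in shAnxa2-CTRL, and 8.47, 8.38 and 5.43 in shAnxa2-OGDR. Untreated knockdown cells held the highest level and untreated control cells the lowest. Its interaction, -7.68 ± 0.17 (adjusted p = 1.82e-20), came from 4.12 in shCtrl and -3.55 in shAnxa2. Lcn2, an iron-sequestering acute phase protein, gave -4.88 ± 0.26 and Il1a -4.01 ± 0.24. The chemokine Ccl2 was at 117, 111 and 123 CPM in shCtrl-CTRL, 36.1, 40.03 and 39 in shCtrl-OGDR, 119, 146 and 99.9 in shAnxa2-CTRL, and 167, 185 and 137 in shAnxa2-OGDR. It fell in shCtrl (-1.61), and its shAnxa2 change of 0.42 passed the test although 1 OGDR library lay within the CTRL range, for an interaction of 2.03 ± 0.14. Its neighbour Ccl7 gave 1.94 ± 0.20.

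Genes that the study itself measured in BV2 cells were divided, and 11 of 13 were tested. Tnf was at 44.5, 52.5 and 46.1 CPM in shCtrl-CTRL, 25.2, 31.4 and 28.9 in shCtrl-OGDR, 81.6, 80.6 and 88.6 in shAnxa2-CTRL, and 119, 107 and 98.1 in shAnxa2-OGDR, with an interaction of 1.11 ± 0.11 (adjusted p = 2.69e-09). Il1b, at 0.899 to 7.14 CPM, gave 1.53 ± 0.32, from a fall in shCtrl (-1.31) and a shAnxa2 change of 0.23 that did not pass. The lower members were Nos2, the antiapoptotic Bcl2 (-0.72 ± 0.11) and the inhibitor Nfkbia (-0.65 ± 0.07). Bax was higher (0.37 ± 0.07). Mrc1 (0.01 ± 0.23), Nfkb1 (-0.11 ± 0.07), Ptgs2 (0.14 ± 0.13) and Rela (0.12 ± 0.09) did not pass the test. Il6 and Arg1 did not pass the filter, with at most 10 counts in any library.

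Interferon-stimulated genes were lower for 19 of 35 members and higher for 3. Sp100, of nuclear bodies (-1.98 ± 0.25), the antiviral Rsad2 (-1.93 ± 0.16) and the RNA sensor regulator Dhx58 (-1.67 ± 0.17) led, while the GTPase Gbp3 (1.14 ± 0.22) and Ifi35 (0.43 ± 0.14) were higher. Of 15 MHC class I and peptide loading genes 8 were lower (53.3%, against 35.1% of all genes) and 5 higher (33.3%, against 34.9%). A log2 difference of at least 1 was reached by 20%, near the 21.5% of all genes. The nonclassical H2-T23 (-1.76 ± 0.11), the peptide transporter Tap1 (-1.32 ± 0.08) and H2-K1 (-0.96 ± 0.08) were lower, and the ER chaperones Calr (1.25 ± 0.07) and Pdia3 (0.76 ± 0.07) were higher. Reads of H2 genes can be shared between similar copies, so single H2 values are uncertain. Complement genes were divided. C3, the central component, was at 81.2, 75.7 and 72.5 CPM in shCtrl-CTRL, 302, 255 and 280.3 in shCtrl-OGDR, 377, 343 and 321 in shAnxa2-CTRL, and 187, 179 and 164 in shAnxa2-OGDR, with an interaction of -2.84 ± 0.09 (adjusted p = 7.65e-18). The anaphylatoxin receptors C5ar1 (2.24 ± 0.12) and C5ar2 (1.54 ± 0.26) and properdin, Cfp (2.12 ± 0.13), were higher, and Cd59a, an inhibitor of the terminal complex, was lower (-1.30 ± 0.28).

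Microglial state genes moved with no single direction. Of 13 homeostatic genes 7 were higher and 3 lower, with Tmem119 at 4.80, 4.84 and 4.85 CPM in shCtrl-CTRL, 1.41, 1.83 and 2.36 in shCtrl-OGDR, 5.82, 5.20 and 5.88 in shAnxa2-CTRL, and 9.79, 10.7 and 10.3 in shAnxa2-OGDR and an interaction of 2.26 ± 0.21. P2ry13 (0.97 ± 0.27) and P2ry12 (0.80 ± 0.32) were higher at few CPM, the latter with an adjusted p of up to 0.0939 when 1 library was left out, and the fractalkine receptor Cx3cr1 (-1.44 ± 0.23) and Selplg (-1.37 ± 0.08) lower. Sall1 had 0 counts in every library and Siglech at most 4, so 2 defining homeostatic genes were at or near 0. Of 20 disease-associated genes 11 were lower (55%, against 35.1% of all genes) and 7 higher (35%, against 34.9%). The higher share was thus that of all genes tested. Fabp5 (-1.34 ± 0.09), Apoe (-1.10 ± 0.10) and Cst7 (-1.09 ± 0.08) were lower, and Ccl6 (1.29 ± 0.12) and Lpl (0.61 ± 0.08) higher. Among identity genes the macrophage marker Adgre1 (-1.82 ± 0.07) and the Fc receptor chain Fcer1g (-0.97 ± 0.08) were lower, and Csf1r, the receptor for the growth factor CSF1, was higher (0.66 ± 0.06). Of the 4 tested markers of other cell types the myelin gene Mbp was lower (-0.96 ± 0.22), at 2.75 to 5.42 CPM, and the endothelial cadherin Cdh5 higher (4.11 ± 0.56), at 0.0763 to 1.89 CPM and named after its value was seen, while Pecam1 (-1.26 ± 0.70) did not pass the test. The part of these markers in the other results was not tested.

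DNA replication genes moved together, with 0 called against the list. Of 50 members tested, 46 were higher (92.0%, against 34.9% of all genes) and 0 lower, 21 of them with a log2 difference of at least 1. OGD/R lowered 43 in shCtrl and raised 48 in shAnxa2, with medians of -0.50 and 0.44, and 41 had the opposite form. Cdc6, which loads the replicative helicase, was at 83.7, 84.3 and 81.1 CPM in shCtrl-CTRL, 29.9, 29.8 and 28.6 in shCtrl-OGDR, 39.6, 39.3 and 38.3 in shAnxa2-CTRL, and 76.1, 78.1 and 69.9 in shAnxa2-OGDR. The shCtrl-CTRL and shAnxa2-OGDR libraries were high and the other 6 low, without overlap within either line. The interaction was 2.43 ± 0.08 (adjusted p = 6.59e-18). The G1/S cyclin Ccne1 gave 2.12 ± 0.08 and the maintenance methylation factor Uhrf1 2.06 ± 0.07. The uncalled members were Rfc2, Rfc5, Tk1 and Gins4, with interactions between 0.03 ± 0.09 and 0.15 ± 0.07, named after their values were seen. Mitosis genes moved less: 26 of 46 were higher and 8 lower, and 0 reached a log2 difference of 1. Cdk1 (0.92 ± 0.07), Mad2l1 (0.81 ± 0.10) and Kif23 (0.80 ± 0.08) were the highest, and the mitotic cyclin Ccnb2 (-0.85 ± 0.07) and Nusap1 (-0.74 ± 0.08) were lower. The replication list had a median of 0.90 and the mitosis list of 0.34.

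E2F sites, searched as TTTCCCGC, TTTGGCGC or TTTCGCGC on both strands, were in the windows of 16 of 41 replication genes (39.0%), against 4.28% of tested genes and 1.84% of all windows. E2F factors are the known regulators of these genes, so the share describes the list and is no result of these libraries. The window of Cdc6 (chr11:98907901-98908200, plus strand) holds 1 match, 138 bases before the start.
Cdc6: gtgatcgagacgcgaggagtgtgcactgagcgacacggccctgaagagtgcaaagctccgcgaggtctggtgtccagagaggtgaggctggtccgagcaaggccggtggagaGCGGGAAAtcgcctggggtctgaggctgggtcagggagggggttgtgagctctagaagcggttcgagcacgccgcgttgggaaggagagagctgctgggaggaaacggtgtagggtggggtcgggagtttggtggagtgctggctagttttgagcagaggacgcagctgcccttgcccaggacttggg

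Ribosome biogenesis had the highest median of the lists. Of 51 members, which process rRNA and assemble ribosomal subunits in the nucleolus, 47 were higher (92.2%), 29 of them with a log2 difference of at least 1, and 0 lower. OGD/R lowered 47 in shCtrl and raised 44 in shAnxa2, with medians of -0.66 and 0.46. Grwd1, a chaperone of ribosomal protein L3, was at 72.3, 70.9 and 75.8 CPM in shCtrl-CTRL, 29.4, 34.2 and 29.2 in shCtrl-OGDR, 36.1, 34.6 and 36.8 in shAnxa2-CTRL, and 71.5, 69.9 and 72.4 in shAnxa2-OGDR. The groups split as for Cdc6, and the interaction was 2.22 ± 0.09 (adjusted p = 1.27e-16). The processome components Utp20 and Heatr1 gave 1.85 ± 0.07 and 1.81 ± 0.07, the latter from 369.8, 353 and 357 CPM in shCtrl-CTRL, 165, 168 and 163 in shCtrl-OGDR, 227, 229 and 226 in shAnxa2-CTRL, and 379, 376 and 343 in shAnxa2-OGDR. The uncalled members were Gnl2 (0.20 ± 0.09), Noc2l (0.07 ± 0.06), Nop10 (-0.07 ± 0.10) and Rrp1 (-0.10 ± 0.08), named after their values were seen.

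The E-box CACGTG, which Myc and related factors bind, was in the windows of 13 of 44 ribosome biogenesis genes (29.5%), against 11.8% of tested genes and 7.15% of all windows. Like the E2F share, this one describes the list and is no result of these libraries. Grwd1 (chr7:45830740-45831039, minus strand) holds the E-box 34 bases after the start.
Grwd1: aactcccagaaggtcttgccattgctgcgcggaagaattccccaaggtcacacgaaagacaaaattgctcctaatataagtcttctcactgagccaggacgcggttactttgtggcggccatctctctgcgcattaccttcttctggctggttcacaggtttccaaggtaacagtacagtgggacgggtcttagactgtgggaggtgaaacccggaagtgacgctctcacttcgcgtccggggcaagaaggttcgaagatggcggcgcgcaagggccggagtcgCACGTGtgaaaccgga
The mRNA of Myc itself was at 1.96, 2.71 and 2.87 CPM in shCtrl-CTRL, 11.1, 9.73 and 9.37 in shCtrl-OGDR, 7.72, 8.27 and 7.58 in shAnxa2-CTRL, and 2.91, 3.54 and 2.28 in shAnxa2-OGDR. It was highest in the shCtrl-OGDR libraries, where the biogenesis list was lowest, and had an interaction of -3.41 ± 0.22 (adjusted p = 1.20e-12).

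Proteins of the finished ribosome went against its assembly factors. Of 84 cytosolic ribosomal proteins 52 were lower (61.9%) and 10 higher, by small amounts (median -0.30, 1 lower and 1 higher at a log2 difference of at least 1). Rpl5 (-1.04 ± 0.09), Rps25 (-0.98 ± 0.10) and Rpl23a (-0.89 ± 0.12) were the lowest. Rpl36al (1.35 ± 0.39) and Rps10 (0.99 ± 0.26), the highest, were counted at 0.687 to 2.76 and 2.77 to 10.4 CPM. These genes have many near-identical pseudogenes, so values of single members are uncertain. Mitochondrial ribosomal proteins had the opposite sign, with 38 of 77 higher and 16 lower (median 0.18), Mrps6 (1.34 ± 0.11), Mrpl51 (1.15 ± 0.10) and Mrpl21 (1.03 ± 0.10) leading and Mrpl28 (-0.78 ± 0.07) and Mrpl43 (-0.75 ± 0.10) lowest. Constitutive proteasome subunits had 18 of 34 higher and 6 lower, with Psmd6 (0.97 ± 0.08), Psmc2 (0.91 ± 0.08) and Psmc5 (0.91 ± 0.06) higher and Psmd10 (-1.31 ± 0.09) and Psmd8 (-0.88 ± 0.08) lower.

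**Figure D3:**
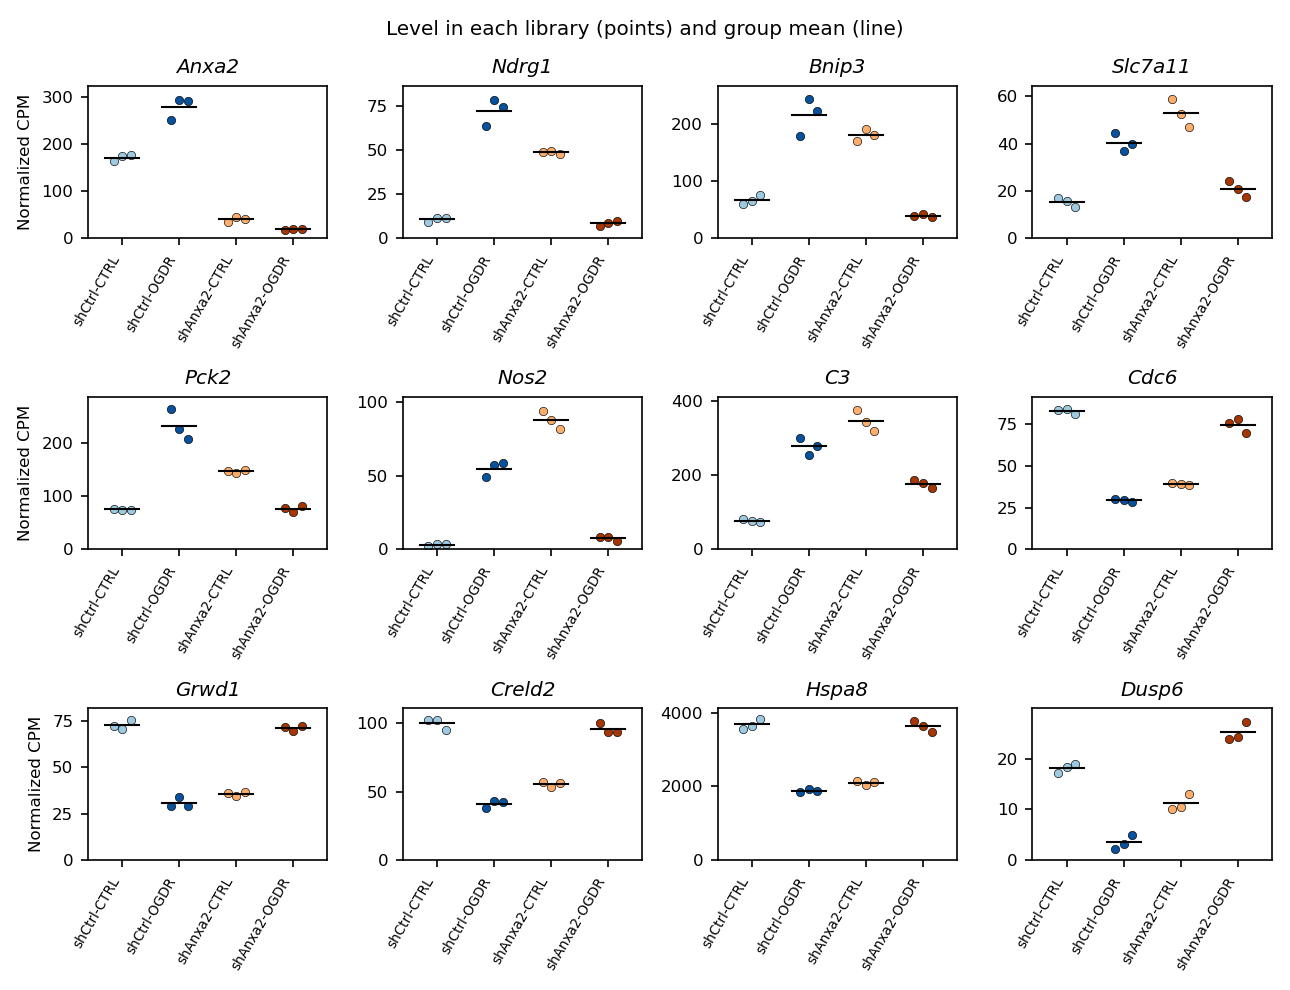
Level of 12 named genes in each library (points, CPM scaled by TMM, axis from 0) with the group mean (line), for the 4 groups of 3 libraries. Ndrg1, Bnip3, Slc7a11, Pck2, Nos2 and C3 are high in shCtrl-OGDR and shAnxa2-CTRL, Cdc6, Grwd1, Creld2, Hspa8 and Dusp6 are low in shCtrl-OGDR, and Anxa2 is lower in every knockdown library than in every control library.

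Oxidative phosphorylation divided by genome. Of 11 mitochondrially encoded subunits tested 9 were higher and 0 lower, with a median of 1.03. The cytochrome b gene mt-Cytb was at 1130.4, 1155 and 1055 CPM in shCtrl-CTRL, 426, 517 and 505 in shCtrl-OGDR, 545, 523 and 533 in shAnxa2-CTRL, and 907, 968 and 828 in shAnxa2-OGDR, with an interaction of 1.96 ± 0.09 (adjusted p = 1.65e-15), and mt-Nd4 gave 1.45 ± 0.10. The median of the list was 0.83 without shAnxa2-OGDR replicate 2. mt-Co2 gave 1.78 ± 0.38 but was counted at only 0.635 to 2.96 CPM. Nuclear-encoded subunits were lower for 41 of 77 and higher for 6 (median -0.27). Ndufv3 gave -1.06 ± 0.10, and the larger values of Cox7a1 (-1.63 ± 0.53) and Cox6a2 (-1.41 ± 0.38) belonged to muscle isoforms at 0.459 to 2.18 and 0.929 to 5.87 CPM, and their shAnxa2 CTRL and OGDR libraries overlapped. Atp5md (0.78 ± 0.17) and Ndufb1 (0.73 ± 0.15) were higher, as was Ndufa4l2 (2.36 ± 0.63), at 0.153 to 1.12 CPM and named after its value was seen. Of 29 TCA cycle and fatty acid oxidation genes 19 were lower, among them Cpt2 (-1.04 ± 0.14), Acadl (-0.84 ± 0.10) and Suclg2 (-0.81 ± 0.07), and 3 higher, with Cpt1a, the entry step of fatty acid oxidation, at 1.61 ± 0.10 and Idh3a at 0.53 ± 0.09. Cpt1a and Cpt2, which act in sequence in carnitine transfer, thus had opposite signs.

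Lipid synthesis genes went both ways. Of 22 cholesterol synthesis genes 10 were lower (45.5%, against 35.1% of all genes) and 8 higher (36.4%, against 34.9%). This split was not far from that of all genes tested, but with a log2 difference of at least 1 there were 5 lower and 0 higher. The GO term for cholesterol biosynthesis, a partly different set, had 13 of 23 genes lower and 8 higher (median -0.57). The mevalonate kinase Mvk (-1.41 ± 0.11), the decarboxylase Mvd (-1.60 ± 0.07) and the sterol reductase Tm7sf2 (-2.26 ± 0.19) were lower, while the isomerase Ebp (0.98 ± 0.12) was higher. Mvd was at 51.2, 51.8 and 50.5 CPM in shCtrl-CTRL, 88.5, 87.7 and 91.6 in shCtrl-OGDR, 91.3, 89.9 and 88.2 in shAnxa2-CTRL, and 54.5, 50.02 and 50.2 in shAnxa2-OGDR. In fatty acid synthesis Fasn (1.55 ± 0.07), Elovl6 (0.97 ± 0.09) and Elovl5 (0.81 ± 0.08) were higher, and Acss2, which makes acetyl-CoA from acetate, was lower at -2.82 ± 0.14, as was the desaturase Scd2 (-0.43 ± 0.07). Acss2 was at 7.06, 7.03 and 6.43 CPM in shCtrl-CTRL, 21.2, 20.8 and 20.4 in shCtrl-OGDR, 15.9, 18.3 and 15.8 in shAnxa2-CTRL, and 8.16, 6.91 and 6.55 in shAnxa2-OGDR. The list of LXR target genes also holds the LXR receptors Nr1h2 and Nr1h3. Of its 8 tested genes 5 were lower, including Apoe, Nr1h2 (-0.52 ± 0.08) and the cholesterol exporter Abca1 (-0.27 ± 0.09). Nr1h3 (1.32 ± 0.13) and Srebf1 (0.64 ± 0.07) were higher. Among 14 glucose-sensing arrestins and clock genes, Per3 (-2.23 ± 0.17), Dbp (-1.93 ± 0.21) and Arrdc4 (-0.84 ± 0.10) were lower, and Per2 (1.49 ± 0.25) and Cry1 (0.55 ± 0.08) higher. The median of this list was between -0.25 and -0.41 with 1 library left out.

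Autophagy and lysosome genes lay on the lower side. Of 39 autophagy genes 23 were lower and 6 higher (median -0.42). The receptor Calcoco1 gave -2.10 ± 0.09, the initiating kinase Ulk2 -2.09 ± 0.10 and Tfeb, the transcription factor for lysosomal genes, -1.86 ± 0.10, while Atg4d (0.74 ± 0.10) and Atg16l1 (0.70 ± 0.09), which act on LC3 conjugation, were higher. Tfeb was at 30.2, 28.4 and 28.7 CPM in shCtrl-CTRL, 70.2, 62.7 and 67.4 in shCtrl-OGDR, 40.4, 36 and 39.8 in shAnxa2-CTRL, and 23.8, 23 and 27 in shAnxa2-OGDR, with OGD/R changes of 1.20 in shCtrl and -0.66 in shAnxa2. Of 44 lysosomal genes 25 were lower and 4 higher, mostly by little (median -0.20). The glycosidase Naglu (-2.35 ± 0.09) and the sulfatase Arsa (-1.06 ± 0.09) stood out, while Cln3 (0.44 ± 0.07) and Manba (0.44 ± 0.06) were higher. Actin genes were higher for 15 of 31 and lower for 8. The focal adhesion protein Zyx (2.18 ± 0.12), Actg1 (1.86 ± 0.11) and the crosslinker Actn1 (1.35 ± 0.07) were higher, and the severing protein Gsn (-1.71 ± 0.08) and the monomer-binding Tmsb10 (-1.10 ± 0.26) lower.

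Of 11 ERK feedback and output genes tested 7 were higher and 2 lower, 5 and 2 of them with a log2 difference of at least 1. Dusp6, the ERK phosphatase, was at 17.2, 18.3 and 18.9 CPM in shCtrl-CTRL, 2.31, 3.28 and 4.92 in shCtrl-OGDR, 10.1, 10.5 and 13 in shAnxa2-CTRL, and 23.9, 24.3 and 27.3 in shAnxa2-OGDR. Its interaction of 3.57 ± 0.20 (adjusted p = 9.19e-14) was made of a change of -2.41 in shCtrl and of 1.16 in shAnxa2. The cyclin Ccnd1 gave 1.59 ± 0.08 and the ETS factor Etv5 1.77 ± 0.11, and Etv1 (-1.33 ± 0.10) and Spred3 (-1.15 ± 0.23) were lower. Immediate early genes were divided, with 10 higher and 6 lower of 20, 4 and 4 of them with a log2 difference of at least 1. Fos (3.16 ± 0.21), Ier2 (1.5 ± 0.09) and Egr3 (1.51 ± 0.22) were higher, and Myc and Atf3 (-1.61 ± 0.07) lower.

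**Figure D4:**
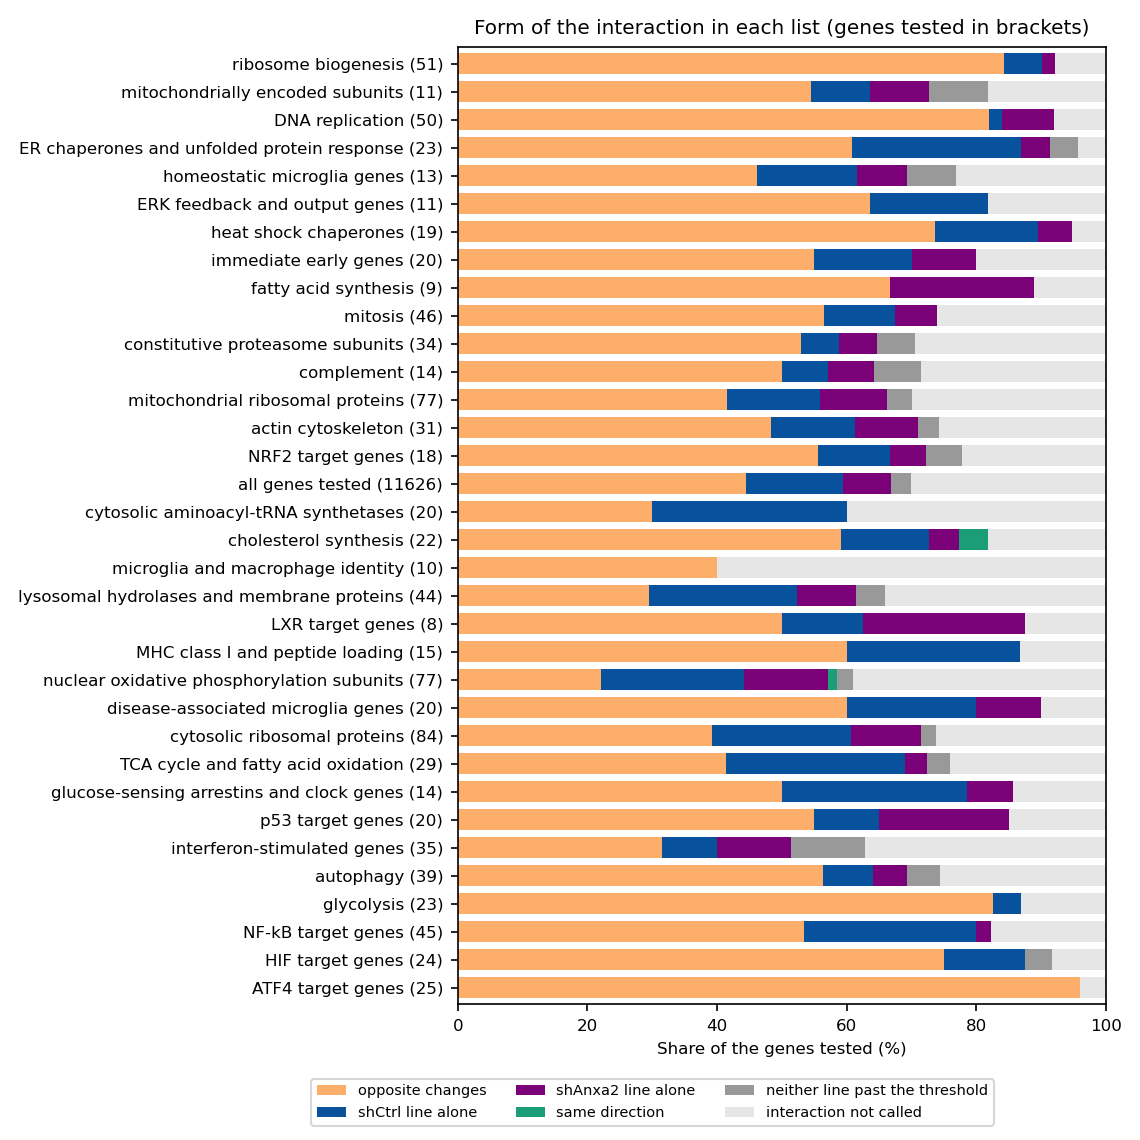
Share of the tested genes of each list (percent, number tested in brackets) by form of the interaction, in the order of the median interaction. Opposite changes take 24 of 25 ATF4 target genes and 43 of 51 ribosome biogenesis genes but 17 of 77 nuclear oxidative phosphorylation subunits, beside 5165 of 11626 over all genes.

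The form varied between lists. Opposite changes took 24 of 25 ATF4 target genes, 43 of 51 ribosome biogenesis genes, 41 of 50 replication genes and 19 of 23 glycolysis genes, beside 5165 of the 11626 genes tested. With the shAnxa2 treatment names exchanged these would be changes in the same direction. In nuclear oxidative phosphorylation 17 of 77 members had this form, as many as changed in shCtrl alone, and in the aminoacyl-tRNA synthetases 6 of 20 did. Genes with a change in shCtrl alone and a mean of at least 5 CPM were led by Ipcef1 (1.31 ± 0.17), H4f16 (1.22 ± 0.16) and Gpr35 (1.13 ± 0.12) on the higher side and by Hspa2 (-1.23 ± 0.20), Gpr162 (-1.22 ± 0.12) and Ctbs (-1.07 ± 0.22) on the lower. Gpr162 was at 23.8, 21.3 and 19.96 CPM in shCtrl-CTRL, 47.2, 42.7 and 42.4 in shCtrl-OGDR, 22.2, 20.9 and 22.3 in shAnxa2-CTRL, and 18.3, 17.8 and 21.1 in shAnxa2-OGDR, so the 3 shCtrl-OGDR libraries stood above all others. At the same level, genes with a change in shAnxa2 alone included Actr3b (0.86 ± 0.16) and Rpl37a (0.94 ± 0.16), both higher, and Pet100 (-1.35 ± 0.27), Cenpp (-1.03 ± 0.21) and Tex14 (-1.01 ± 0.23), all lower. The 5 genes with a called interaction and same-direction changes were the retinol dehydrogenase Dhrs9 (0.51 ± 0.08), Sqle of cholesterol synthesis (0.19 ± 0.07), Nadk, which makes NADP (-0.44 ± 0.07), Uqcrq of complex III (-0.38 ± 0.10) and the lysosomal phospholipase Pla2g15 (-0.22 ± 0.08). Nadk was at 267, 257 and 246 CPM in shCtrl-CTRL, 369, 392 and 373 in shCtrl-OGDR, 380.2, 383 and 381 in shAnxa2-CTRL, and 425, 421 and 397 in shAnxa2-OGDR, a rise in each line that was larger in shCtrl. Sqle and Pla2g15 lost the call when single libraries were left out, with largest adjusted p-values of 0.0779 and 0.0597. In genes called with neither line past the threshold, Igtp (-0.57 ± 0.19) kept its call without any 1 library, and Zfp950 (0.63 ± 0.23), Dnajb9 (0.58 ± 0.21), Zfp160 (0.53 ± 0.23), Vamp2 (-0.58 ± 0.23) and Exoc3l2 (-0.54 ± 0.23) did not.

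Single genes with the largest interactions were chosen among those with a mean of at least 1 CPM and called in every fit that left out 1 library. On the lower side Ip6k3, an inositol hexakisphosphate kinase, had -10.94 ± 0.52. It was at 0, 0.147 and 0.0368 CPM in shCtrl-CTRL, 4.50, 4.66 and 4.87 in shCtrl-OGDR, 4.55, 4.57 and 3.38 in shAnxa2-CTRL, and 0.204, 0.0795 and 0.145 in shAnxa2-OGDR, and the 3 untreated control libraries held 0, 4 and 1 counts, so the size of its fold depends on the prior count of the fit. The zinc finger gene Zc3h6 gave -7.74 ± 0.31, the aquaglyceroporin Aqp3 -6.95 ± 0.45 and the vanin Vnn3 -6.92 ± 0.21. Selenbp1, a selenium-binding protein that oxidizes methanethiol, was at 13.5, 13.9 and 17.1 CPM in shCtrl-CTRL, 109.6, 151 and 152 in shCtrl-OGDR, 90.6, 98.7 and 101 in shAnxa2-CTRL, and 11, 10.8 and 12.8 in shAnxa2-OGDR, with an interaction of -6.28 ± 0.15 (adjusted p = 5.03e-20). The laforin gene Epm2a (-6.00 ± 0.28) and Rufy4 (-5.86 ± 0.29) completed this side. On the higher side Trem1, a receptor that amplifies inflammation, was at 6.56, 6.04 and 6.06 CPM in shCtrl-CTRL, 0.587, 0.840 and 0.615 in shCtrl-OGDR, 5.48, 4.23 and 5.08 in shAnxa2-CTRL, and 15.6, 13.3 and 12.8 in shAnxa2-OGDR. It fell in shCtrl (-3.17) and rose in shAnxa2 (1.49), for an interaction of 4.65 ± 0.23 (adjusted p = 8.78e-15). The kinase Dmpk (4.47 ± 0.43), the macrophage elastase Mmp12 (4.38 ± 0.31), the chemokine receptor Cxcr3 (3.46 ± 0.32), the immediate early gene Arc (3.36 ± 0.20) and the BMP-binding Bmper (3.32 ± 0.36) followed, all under 11 CPM in every library. The highest value among them, 5.26 ± 1.25 for the mitochondrial leucyl-tRNA synthetase Lars2, rested on 1 library. It was at 112, 65.6 and 36.2 CPM in shCtrl-CTRL, 64.4, 36.9 and 19.9 in shCtrl-OGDR, 37, 73.7 and 48.2 in shAnxa2-CTRL, and 3394, 59.6 and 68.6 in shAnxa2-OGDR, and without shAnxa2-OGDR replicate 1 the interaction was 1.06 (adjusted p = 0.0386 by edgeR's quasi-likelihood test). Anxa2 itself had an interaction of -1.74 ± 0.10 (adjusted p = 3.35e-13), rising in shCtrl (0.70) and falling in shAnxa2 (-1.04), and its partner S100a10 one of 0.33 ± 0.12, with an adjusted p of up to 0.0802 when 1 library was left out.

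Annotation terms (GO and KEGG) given in the table were ordered in the same way, 1725 terms with at least 20 genes tested. The 8 highest medians were all of chromosome replication, ribosome assembly and the nuclear pore. They were DNA replication origin binding (1.19, 18 of 22 genes higher), the large subunit precursor of the preribosome (0.98, 18 of 23), DNA replication-dependent nucleosome assembly (0.90, 30 of 31), replication fork processing (0.87, 18 of 28), DNA replication (0.82, 28 of 35), nuclear chromosome (0.80, 38 of 45), structural constituent of the nuclear pore (0.78, 17 of 21) and the small-subunit processome (0.78, 30 of 35). The nuclear pore genes belong to none of the lists above, and Nup35 (1.41 ± 0.09) and Nup214 (1.40 ± 0.07), named after their values were seen, led them. Histone genes fill much of the nucleosome terms, and their near-identical copies make single histone values uncertain.

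At the lower end stood glutamatergic synaptic transmission (-1.24, 15 of 22 genes lower), xenobiotic metabolism by cytochrome P450 (-0.98, 17 of 26), the hippocampal mossy fiber to CA3 synapse (-0.95, 13 of 23), glutathione transferase activity (-0.90, 14 of 20), chemical carcinogenesis (-0.87, 19 of 30), drug metabolism by cytochrome P450 (-0.78, 13 of 25), propanoate metabolism (-0.74, 21 of 27) and positive regulation of the p38 MAPK cascade (-0.71, 14 of 20). The xenobiotic, carcinogenesis and drug terms share glutathione transferase genes, such as Gstm2 (-3.06 ± 0.28), which have similar copies. The epoxide hydrolase Ephx1 (-2.04 ± 0.09) is in the first of them. Propanoate metabolism, which takes up the breakdown of branched-chain amino acids, held Aldh6a1 (-2.26 ± 0.15), the carboxylase subunit Pcca (-1.40 ± 0.09) and Bckdha (-1.26 ± 0.15). Vegfa (-1.79 ± 0.08) and Gadd45a (-2.29 ± 0.28) were in the p38 term. In the glutamatergic term the receptor subunit Grin1 had the largest value (-9.51 ± 1.03) at 0 to 0.871 CPM, a size that depends on the prior count of the fit. All genes named for these lower terms were chosen after their values were seen.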

How the data were processed

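The 12 libraries comprised 3 each of shCtrl-CTRL, shCtrl-OGDR, shAnxa2-CTRL and shAnxa2-OGDR, grouped by sample name. The values used were the raw counts per gene that the authors deposited. The submitters' processing notes name HISAT2 2.0.4 and mm39, and how the authors' counting treated reads shared by similar genes, or strand, is not given in the sources used here. A further 12 normalized columns of the same table, one per library, were not used. The table also held 14 genes without a name, which were not removed and were subject to the same filter.

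Genes with at least 0.5 CPM in at least 3 libraries were fitted with edgeR 4.0.16 (TMM, quasi-likelihood, 1 mean per group, R 4.3.3), and p-values were adjusted by Benjamini-Hochberg over 11626 genes. Errors (±) are standard errors. CPM are counts scaled to a common library total with TMM factors. Totals of 19521877 to 27288843 counts limit precision for genes under about 1 CPM. The scripts were tested on simulated data in which few genes changed, and those in the shAnxa2-OGDR group alone. That setting is unlike these libraries, where most genes were called.

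Named genes were Anxa2, the 8 largest per direction that kept the call in every fit without 1 library and had a mean of at least 1 CPM, up to 3 called members of each list in its majority direction and 2 in the other, genes the study measured in BV2 cells, and up to 3 per form and direction at a mean of at least 5 CPM. A few genes that the rule named are not reported here. Others are marked as chosen after their values were seen. The 36 lists (1040 genes, 6 entries unmatched) and the rule were chosen with earlier results of these data known. Promoter windows came from RefSeq (GRCm38.p6) and were matched by symbol for 9345 of 11624 tested symbols. Alternatives were other scalings and filters, DESeq2 1.42.0, limma 3.58.1 (voom), a replicate block, other fold limits and leaving out each library. Python 3.11.15 with pandas 2.3.3 made tables and plots.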

Additional observations from a re-analysis of the deposited data

Results flagged for a closer look

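The OGD/R change differed between the shCtrl and shAnxa2 lines for 8136 genes by edgeR's test of the interaction term, 70.0% of the 11626 tested. It differed likewise for 198 of the 202 genes chosen for naming, 100 of them higher and 98 lower in shAnxa2, a share fixed in part by the choice, which drew on called genes.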

How the results depend on the processing

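Of the 198 named genes called, 188 kept the call and its direction in all 22 alternatives, and Dnajb9, Exoc3l2, Lars2, P2ry12, Pla2g15, S100a10, Sqle, Vamp2, Zfp160 and Zfp950 lost it in at least 1. For Lars2 this was limma voom (2.97, adjusted p = 0.0737). The counts of genes called higher and lower were 3982 and 4005 by DESeq2, 4041 and 4059 by limma voom, 3639 and 4477 with upper quartile scaling (median of all genes -0.08), and 3828 to 4002 and 3905 to 4106 with 1 library left out. Replicate numbers are given by the sample names, but libraries of the same number did not deviate together (r from -0.0779 to 0.1842 over 18 pairs, against -0.1471 to 0.1104 over 36 pairs of different number). A replicate block gave 4043 higher and 4071 lower, and 1021 and 1467 with the fold limit.

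Some medians of lists moved by more than the spread between libraries, and the cause was not tested. Upper quartile scaling gave -0.38 for TCA cycle and fatty acid oxidation, 0.11 for mitochondrial ribosomal proteins, 0.21 for the proteasome, -0.13 for aminoacyl-tRNA synthetases, 0.013 for NRF2 targets, 0.29 for fatty acid synthesis, 0.83 for DNA replication, 0.27 for mitosis, 1.03 for ribosome biogenesis, -0.27 for lysosomal genes, -0.49 for autophagy, -0.37 for disease-associated genes and -0.41 for clock and arrestin genes. Without a filter, values were 0.15 for NRF2 targets, 0.86 for ERK genes, 0.082 for complement, -0.43 for disease-associated genes and -0.46 for clock and arrestin genes, and 9 genes changed in the same direction. With a filter of 2 CPM clock and arrestin genes were at -0.43. With 1 library left out the ranges were -0.53 to -0.39 for interferon-stimulated genes, -0.41 to -0.25 for clock and arrestin genes, -0.33 to -0.26 for TCA cycle and fatty acid oxidation, 0.15 to 0.26 for mitochondrial ribosomal proteins, -0.35 to -0.28 for disease-associated genes, 0.83 to 1.13 for mitochondrially encoded subunits, 0.29 to 0.45 for immediate early genes, and 1 (without shAnxa2-CTRL replicate 1) to 6 for the number of genes changing in the same direction.

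A fold limit of 1.5 in place of 2 left 2302 genes higher and 2557 lower, and a limit of 4 left 150 and 395. The uncalled interaction of Mrc1 changed sign, to -0.0193 with library totals alone, -0.0144 without a filter and -0.061 with upper quartile scaling, and with 1 library left out ranged from -0.10 to 0.12.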
